A study of Homo sapiens with 12 samples.

Results

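Glycogen metabolism was followed through 9 genes, *GYS1*, *GBE1*, *PYGL*, *PYGB*, *PPP1R3B*, *PPP1R3C*, *PGM1*, *UGP2* and *GYG1*, which were chosen by name among the 25369 genes of the table. The choice was made with earlier results of these data known. Poly(A)+ RNA was sequenced from RKO colon carcinoma, A549 lung adenocarcinoma and H460 lung large cell carcinoma cells, each either kept in normoxia or exposed to 1% O2 for 24 h. There were 2 libraries, from independent biological replicates, in each of the 6 groups of line and oxygen condition. RKO and A549 grew in DMEM and H460 in RPMI, so in comparisons with H460 line and medium cannot be told apart. Each line is an established tumor line and stands for itself, not for its tissue.

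Glycogen is a branched polymer of glucose that cells build when glucose is at hand and break down when it is not. Phosphoglucomutase and UDP-glucose pyrophosphorylase make the activated sugar, glycogenin starts the chain, glycogen synthase lengthens it, and the branching enzyme adds branches. Glycogen phosphorylase releases glucose units from the chain ends, and targeting subunits bring protein phosphatase 1 to the particle, where it turns synthase on and phosphorylase off. Glycogen is known to build up in many cultured tumor cells under low oxygen, and glycogen itself was not measured here.

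Library totals ranged from 27350424 to 41757584 counts. *CA9*, *NDRG1*, *VEGFA*, *SLC2A1* and *PDK1*, known to respond to low oxygen, were higher in hypoxia in all 3 lines. Of 4 epithelial markers, the keratins *KRT8* and *KRT18* were at 3.82 RPKM or more in every library, while *CDH1* was at or below 0.11 RPKM in RKO and H460 and *EPCAM* at or below 0.31 RPKM in H460. Of 4 colon markers, RKO had *CDX2* (4.10 to 7.14 RPKM) but *VIL1*, *CDH17* and *KRT20* at or below 0.03 RPKM. Of 4 lung markers, *SFTPB* and *SFTPC* were at or below 0.07 RPKM in both lung lines, *NKX2-1* peaked at 1.15 RPKM in H460, and *NAPSA* reached 3.38 RPKM in A549. Markers of blood (*PTPRC*, *CD3E*), endothelium, muscle and liver, and the fibroblast genes *COL1A2* and *DCN*, were at or below 0.72 RPKM throughout. *CD68* (10.5 to 357 RPKM) and *COL1A1* (up to 69.7 RPKM, in A549) were the exceptions. Of 23 tests of a marker in a line, 4 were called higher in hypoxia and 1 lower: *CD68* in H460 (log2 fold change 1.20), *COL1A1* in RKO (2.15) and A549 (2.08) and *NKX2-1* in H460 (2 and 0 to 87 and 98 reads) were higher, and *KRT18* in RKO (-1.05) was lower. *NKX2-1* in H460 and *COL1A1* in RKO passed the low-count filter only through the hypoxic libraries, so their calls are no support for a rise. Summed epithelial marker RPKM, mostly from *KRT8* and *KRT18*, was lower in hypoxia in every line. It went from 128 to 131 down to 69.5 to 72.9 in RKO, from 1411 to 1696 down to 1226 to 1277 in A549 and from 678 to 695 down to 430 to 440 in H460. The single markers did not all fall. With TMM scaling the log2 fold change of *KRT8* was 0.31, -0.23 and -0.46 in RKO, A549 and H460, and that of *KRT18* -1.05, -0.24 and -0.17. *EPCAM* had 0.13 in RKO and 0.01 in A549, and *CDH1* 0.54 in A549 and 0.13 in H460. Of these only *KRT18* in RKO was called. The part of these shifts in the results for the glycogen genes was not tested. In such bulk RNA, fewer cells with a transcript and less of it per cell cannot be told apart.

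The number of the 9 genes called in hypoxia differed by line, and in RKO it was near the share of all genes. In RKO, 2 of the 9 genes rose (*GBE1* and *PPP1R3B*) and 0 fell, where 18.8% of all 12817 genes in the test rose and 15.1% fell. In A549, 3 rose (*GBE1*, *PYGL* and *PGM1*) and 0 fell, against 2.22% and 0.456% of 14251 genes. In H460, 7 rose, which were all except *PYGB* and *GYG1*, and *GYG1* fell, against 24.6% and 27.3% of 14080 genes. Calls required an edgeR adjusted p below 0.1 together with a change of more than 1.5-fold, and all 9 passed the filter on low counts in each line. In RKO *PPP1R3C* passed this filter only through the normoxic libraries, where it was higher. *GBE1* was the only gene of the 9 called higher in all 3 lines, as were 0.977% of the 11873 genes tested in each. Over the 9 genes, taking RKO, A549 and H460 in turn, the log2 fold change had a median of 0.36, 0.76 and 1.87, beside 0.01, -0.01 and -0.04 over all tested genes. Since the genes were chosen with earlier results of these data known, these counts and medians are a description and not a test against all genes. The A549 count rested on single libraries: it was 6 without hypoxia replicate 1 and 1 without hypoxia replicate 2, and with the replicate number as a block it was 6. It was 1, *GBE1* alone, with library size scaling, with limma on log2 RPKM and at an adjusted p below 0.05. For no alternative was the share of all genes set beside the count, so counts under alternatives do not show whether the listed genes stood out. The RKO count was 4 without normoxia replicate 1 and 4 without hypoxia replicate 2, with *PGM1* and *GYG1* added.

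**Figure D1:**
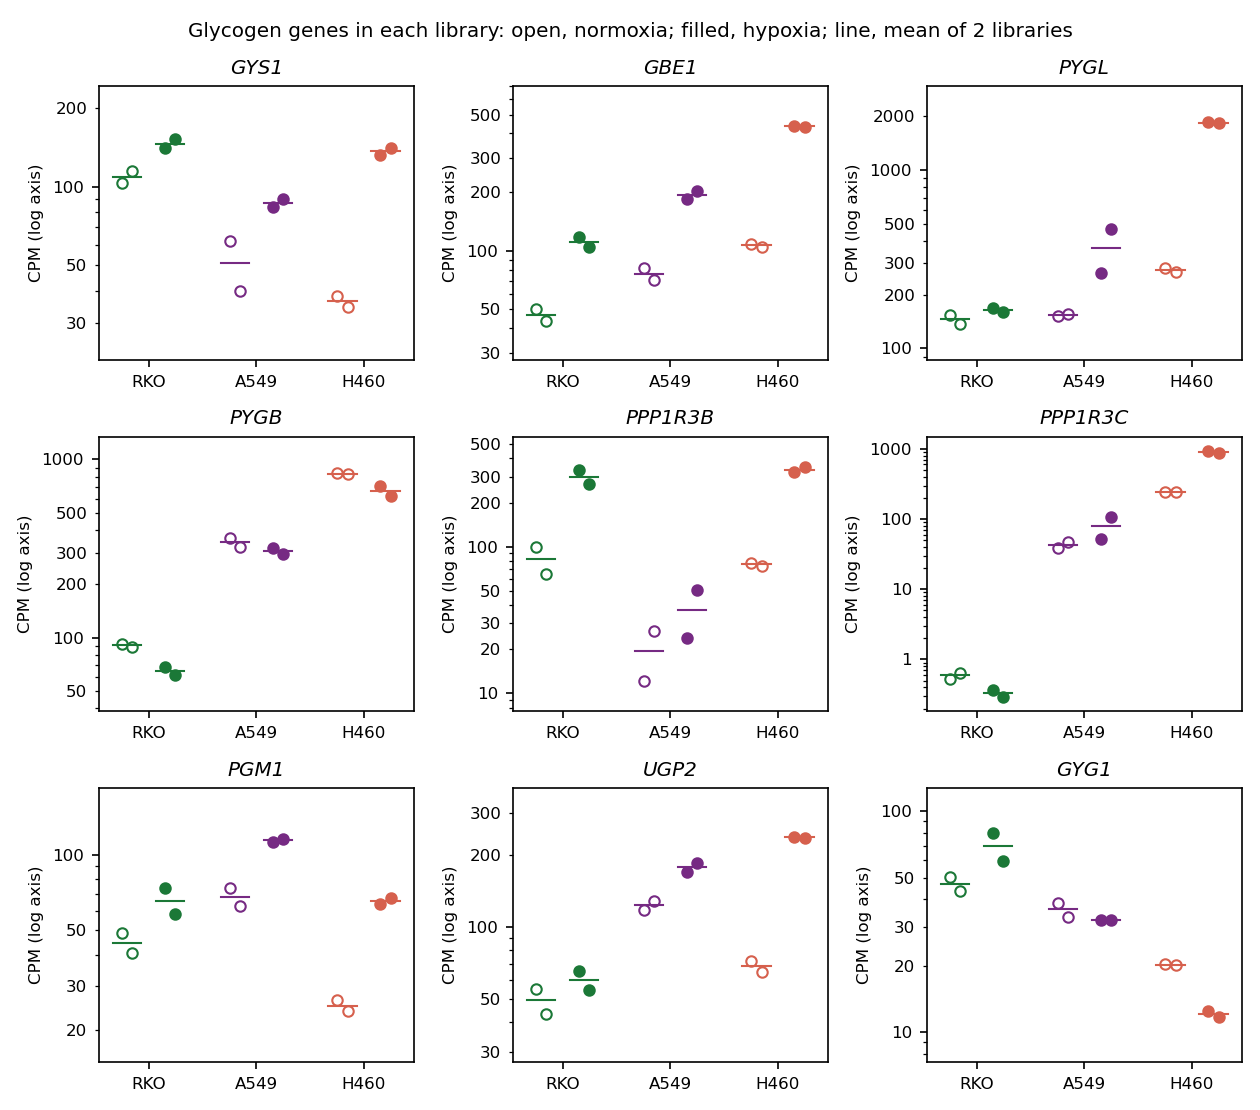
Level of each of the 9 glycogen genes in the 12 libraries, in TMM-scaled CPM on a log axis, with open points for normoxia, filled points for hypoxia and a line at the mean of 2 libraries. Hypoxic H460 libraries stand highest for *PYGL* (1853 and 1847 CPM), and *PPP1R3C* runs from under 1 CPM in RKO to 920 and 877 CPM in hypoxic H460.

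**Figure D2:**
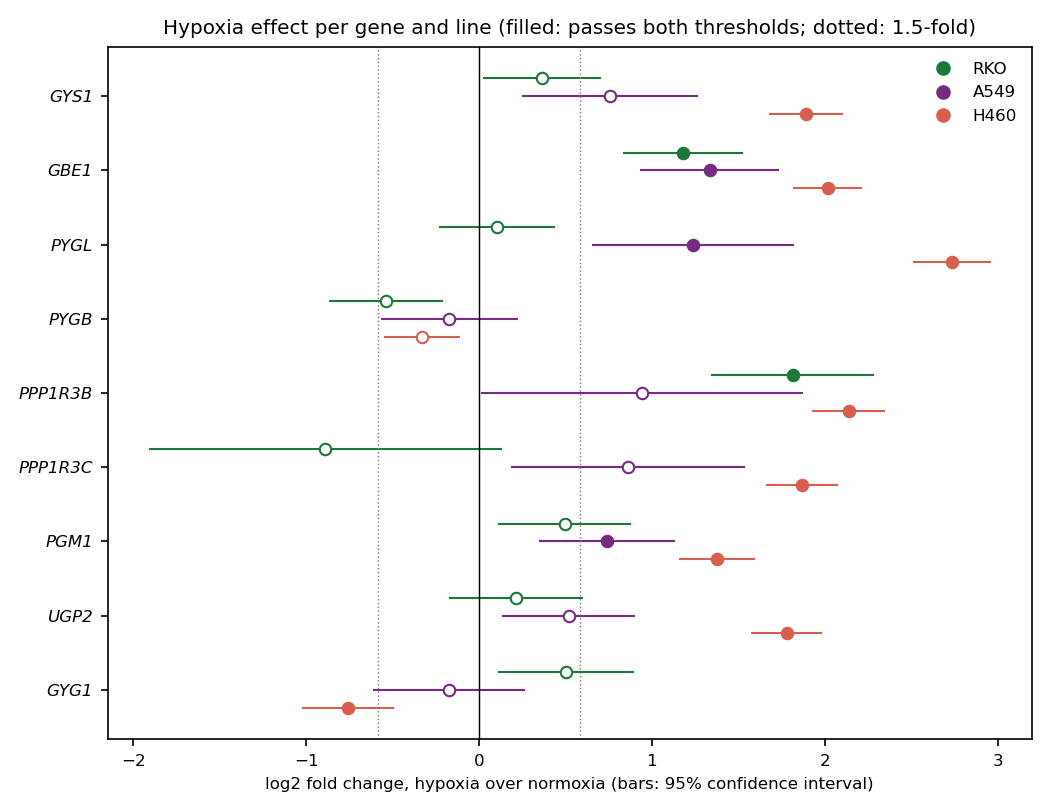
The log2 fold change of hypoxia over normoxia for each gene and line, with its 95% confidence interval, filled where both thresholds were passed and with dotted lines at 1.5-fold. *GBE1* is filled in all 3 lines, and *GYG1* lies above 0 in RKO and below 0 in H460.

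The size of the hypoxia effect was compared between lines in a joint fit. It differed over the 3 lines for 7 of the 9 genes, all except *PYGB* (adjusted p = 0.371) and *PPP1R3B* (adjusted p = 0.128), where 48.8% of 15595 genes passed. Between RKO and H460 it differed for 7 genes, with 37.6% of all genes passing, and 6 of the 7 had the larger log2 fold change in H460. Between A549 and H460 it differed for 8 genes, with 36.0% of all genes passing, and 7 of those had the larger value in H460. Between RKO and A549 it differed for 3 genes, *PYGL*, *PPP1R3C* and *GYG1*, with 14.6% of all genes passing. These comparisons share each line's libraries.

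The lines also differed before treatment. In normoxia, *GYS1* and *PPP1R3B* were higher in RKO than in A549 and 5 genes were lower, where 26.0% of all genes were higher and 34.1% lower. Against H460, 3 genes were higher in RKO (*GYS1*, *PGM1* and *GYG1*) and 4 were lower, with 27.2% and 34.7% of all genes. A549 had 3 genes higher than H460 (*PGM1*, *UGP2* and *GYG1*) and 4 lower, with 26.9% and 25.2% of all genes. These counts over 9 genes are given beside the shares without a test, and the values of single genes follow.

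Promoters were searched for the core letters of the hypoxia response element, ACGTG or GCGTG on either strand. RefSeq promoters (GRCh38.p14) matched 8 of the 9 genes, all except *PPP1R3B*, and the search covered the 250 bases before each gene start. Of these, 6 held at least 1 match and the same 6 held 2 or more, beside 49.9% and 23.8% of 15545 genes with a promoter. *PYGL* and *PGM1* had none in this window. *PYGB*, called in no line and with no stretch printed below, had 2 matches, beginning 176 and 164 bases before its start. The stretches below, read 5′ to 3′ on the gene's strand with matches in capitals, show the gene that rose in every line, the synthase, the sugar-activating enzyme, a targeting subunit, and the gene that fell in H460.
GBE1 (chr3:81761733-81761821, minus strand): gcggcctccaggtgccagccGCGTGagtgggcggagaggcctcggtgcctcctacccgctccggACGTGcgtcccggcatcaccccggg
GYS1 (chr19:48993370-48993437, minus strand): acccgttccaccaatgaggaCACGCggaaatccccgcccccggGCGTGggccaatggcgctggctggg
UGP2 (chr2:63840780-63840909, plus strand): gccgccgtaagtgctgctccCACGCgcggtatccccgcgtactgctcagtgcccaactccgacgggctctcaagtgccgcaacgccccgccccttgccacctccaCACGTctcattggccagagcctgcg
PPP1R3C (chr10:91633091-91633250, minus strand): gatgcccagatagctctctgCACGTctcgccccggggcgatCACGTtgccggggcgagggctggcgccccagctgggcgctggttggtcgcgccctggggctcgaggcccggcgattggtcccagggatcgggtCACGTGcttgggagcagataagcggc
GYG1 (chr3:148991466-148991522, plus strand): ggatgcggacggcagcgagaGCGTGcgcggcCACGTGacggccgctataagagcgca
The matches in *GBE1* began 156 and 112 bases before the gene start, and those in *GYS1* 108 and 85 bases before it. The palindrome CACGTG, which counts as a match on each strand, lay 45 bases before the *PPP1R3C* start and 43 bases before the *GYG1* start. A match is a run of letters, not evidence of binding.

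*PGM1* (chr1:64058947-64125916 on GRCh37, plus strand) encodes the phosphoglucomutase that interconverts glucose 6-phosphate and glucose 1-phosphate. In RKO it stood at 48.6 and 40.7 CPM in normoxia and at 73.6 and 57.9 CPM in hypoxia. In A549 it stood at 73.7 and 62.6 CPM in normoxia and at 113 and 116 CPM in hypoxia. In H460 it stood at 26.3 and 23.8 CPM in normoxia and at 63.6 and 67.3 CPM in hypoxia. The hypoxic libraries were the higher ones in each line, with no overlap, and A549 had the most *PGM1* in both conditions. The gene rose in H460 (log2 fold change 1.38 ± 0.10 SE, adjusted p = 1.79e-07) and, near the threshold, in A549 (0.74 ± 0.17, adjusted p = 0.0868). In A549 the adjusted p was 0.218 without normoxia replicate 2 and also 0.218 without hypoxia replicate 2. In RKO the log2 fold change of 0.49 ± 0.17 (adjusted p = 0.0428) was under 1.5-fold, and it became 0.63 without normoxia replicate 1 and 0.66 without hypoxia replicate 2. The effect was smaller in RKO than in H460 by 0.84 on the log2 scale (SE 0.22, adjusted p = 0.0105), and this difference lost its call with library size scaling (adjusted p = 0.101). The difference of A549 minus H460 (-0.64, adjusted p = 0.0420) missed the threshold with that scaling (-0.38). It also missed it without A549 normoxia replicate 1, A549 hypoxia replicate 1, H460 normoxia replicate 2 or H460 hypoxia replicate 2 (-0.62 to -0.51). Normoxic *PGM1* fell in the order A549, RKO, H460, and each step passed the test, although the step from A549 to RKO (log2 difference of RKO minus A549 -0.59) was under 1.5-fold without RKO normoxia replicate 2 (-0.48) or without A549 normoxia replicate 1 (-0.47).

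*UGP2* (chr2:64068098-64118696, plus strand) encodes the pyrophosphorylase that makes UDP-glucose, the sugar donor of glycogen synthesis. Its levels in RKO were 55.3 and 43.5 CPM in normoxia and 65.3 and 54.3 CPM in hypoxia, so the conditions overlapped. In A549 they were 118 and 129 CPM in normoxia and 169 and 186 CPM in hypoxia. In H460 they were 72.4 and 65.1 CPM in normoxia and 239 and 236 CPM in hypoxia, well apart. *UGP2* rose in H460 by a log2 fold change of 1.78 ± 0.09 (adjusted p = 1.39e-08), which put it above A549 in the mean (238 against 178 CPM). The estimates in RKO (0.21, 95% confidence interval -0.17 to 0.60, adjusted p = 0.360) and A549 (0.52, 0.14 to 0.90, adjusted p = 0.190) did not pass. The H460 effect exceeded the RKO effect by 1.52 and the A549 effect by 1.26 on the log2 scale (adjusted p = 0.000180 and 0.000782). In normoxia A549 was above both other lines (log2 difference of RKO minus A549 -1.31, of A549 minus H460 0.82), and RKO and H460 differed by less than 1.5-fold (RKO minus H460 -0.48, or -0.68 without RKO normoxia replicate 1, which passed).

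*GYG1* (chr3:148709195-148745456, plus strand) encodes glycogenin, the protein on which a glycogen chain starts. RKO had 50.2 and 43.6 CPM in normoxia and 79.7 and 59.4 CPM in hypoxia. A549 had 38.6 and 33.4 CPM in normoxia and 32.1 and 32.1 CPM in hypoxia. H460 had 20.3 and 20.2 CPM in normoxia and 12.4 and 11.7 CPM in hypoxia. RKO was the line with the most *GYG1* and the only line with higher values in hypoxia. The gene fell by 0.76 on the log2 scale in H460 (SE 0.12, adjusted p = 0.000110), a change of less than 2-fold. The estimates were 0.50 ± 0.18 in RKO (adjusted p = 0.0430, under 1.5-fold) and -0.17 ± 0.19 in A549 (adjusted p = 0.700). Without normoxia replicate 1 the RKO estimate was 0.61 and without hypoxia replicate 2 it was 0.70, and both passed. The effect in RKO exceeded that in H460 by 1.31 (adjusted p = 0.000981) and that in A549 by 0.72 (adjusted p = 0.0615) on the log2 scale. The latter difference missed the threshold when any of 5 of the 8 libraries was left out (RKO normoxia replicate 1, 0.83; RKO normoxia replicate 2, 0.63; RKO hypoxia replicate 1, 0.51; A549 normoxia replicate 1, 0.61; A549 hypoxia replicate 1, 0.71). The difference of A549 minus H460 (0.58, adjusted p = 0.0734) kept its call only when A549 normoxia replicate 1 was left out, with 0.48 to 0.60 and adjusted p of 0.114 to 0.222 without each of the other 7 libraries.

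A second glycogenin gene, *GYG2*, was nearly silent in RKO, where *GYG1* held at least 99.9% of the summed glycogenin RPKM. The share of *GYG1* was 69.0% to 71.5% in the 4 A549 libraries. In H460 it was 41.2% and 38.5% in normoxia and 35.5% and 28.6% in hypoxia, so *GYG2* was the larger part there. The log2 fold change of *GYG2* itself was -0.22 in A549 and -0.25 in H460 and passed in neither (adjusted p = 0.609 and 0.0824).

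*GYS1* (chr19:49471382-49496610, minus strand) encodes the glycogen synthase that is found in most tissues. In RKO it was at 103 and 114 CPM in normoxia and at 140 and 151 CPM in hypoxia. In A549 it was at 61.9 and 39.9 CPM in normoxia and at 83.8 and 89.3 CPM in hypoxia. In H460 it was at 38.3 and 34.7 CPM in normoxia and at 132 and 141 CPM in hypoxia. Conditions did not overlap in any line. In CPM, hypoxic H460 came near the level of hypoxic RKO (136 ± 6.24 and 146 ± 8.05 CPM, SD, n = 2) from the lowest normoxic level of the 3 lines. In RPKM, without correction for library composition, hypoxic H460 (28.8 and 32.5) stayed below hypoxic RKO (40.0 and 47.3). Hypoxic levels were not tested between lines. *GYS1* rose 3.71-fold in H460 (log2 fold change 1.89 ± 0.09, adjusted p = 1.13e-08). The estimate was 0.36 ± 0.15 in RKO (adjusted p = 0.0799, under 1.5-fold) and 0.76 ± 0.22 in A549 (adjusted p = 0.158). In A549 the call depended on the setting: it passed with the replicate block (0.79, adjusted p = 0.000329) and with DESeq2 (adjusted p = 0.0600). It also passed in the joint fit (0.77, adjusted p = 0.0193), with no filter (0.75, adjusted p = 0.0791), without normoxia replicate 1 (1.11) and without hypoxia replicate 1 (0.80). The H460 effect was larger than that in RKO by 1.48 on the log2 scale (adjusted p = 0.000676), and A549 minus H460 had a 95% confidence interval of -1.66 to -0.60 (adjusted p = 0.00446). In normoxia RKO had more *GYS1* than A549 (log2 difference 1.11) and H460 (1.57), and A549 minus H460 was 0.46, under 1.5-fold, or 0.74 without A549 normoxia replicate 2. The liver form *GYS2* was at or below 0.08 RPKM in every library, so *GYS1* held at least 99.4% of the summed synthase RPKM.

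*GBE1* (chr3:81538850-81810950, minus strand) encodes the branching enzyme, which moves short chain pieces to form branches. It stood at 50.1 and 43.7 CPM in normoxic and 118 and 104 CPM in hypoxic RKO. It stood at 81.7 and 70.4 CPM in normoxic and 184 and 201 CPM in hypoxic A549. It stood at 109 and 105 CPM in normoxic and 438 and 431 CPM in hypoxic H460. The order RKO, A549, H460 held in both conditions, and every hypoxic library was above every normoxic library of its line. *GBE1* rose 2.27-fold in RKO (log2 fold change 1.18 ± 0.16, adjusted p = 0.000386), 2.52-fold in A549 (1.33 ± 0.18, adjusted p = 0.00888) and 4.05-fold in H460 (2.02 ± 0.09, adjusted p = 5.10e-09). Each of these calls held under all 15 alternatives tried. The effect in RKO was smaller than in H460 by 0.79 (adjusted p = 0.00706) and the effect in A549 was smaller than in H460 by 0.68 (adjusted p = 0.0169) on the log2 scale. Between RKO and A549 the difference was -0.11 with a 95% confidence interval of -0.52 to 0.30, and its sign turned with library size scaling (0.02). In normoxia the steps from RKO to A549 (log2 difference -0.68) and from RKO to H460 (-1.19) passed, the first not without A549 normoxia replicate 1 (-0.57), while A549 minus H460 was -0.51, or -0.62 without that library.

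*PYGL* (chr14:51371935-51411248, minus strand) encodes the liver form of glycogen phosphorylase, and its values had the widest span of hypoxia effects among the enzymes. RKO had 155 and 137 CPM in normoxia and 168 and 159 CPM in hypoxia. A549 had 152 and 155 CPM in normoxia and 263 and 466 CPM in hypoxia. H460 had 283 and 269 CPM in normoxia and 1853 and 1847 CPM in hypoxia. The hypoxic A549 libraries lay far from each other, with replicate 2 the higher, whereas the hypoxic H460 libraries nearly coincided. *PYGL* rose 6.66-fold in H460 (log2 fold change 2.74 ± 0.10, adjusted p = 1.75e-09), the largest fold change of the 9 genes in any line. It rose 2.36-fold in A549 (1.24 ± 0.26, adjusted p = 0.0606), but the estimate was 0.77 with an adjusted p of 0.136 without hypoxia replicate 2. In RKO the estimate was 0.10 with a 95% confidence interval of -0.23 to 0.43 (adjusted p = 0.616). The effect in RKO was smaller than that in H460 by 2.59 (adjusted p = 5.64e-05) and smaller than that in A549 by 1.09 on the log2 scale (adjusted p = 0.0346, or 0.121 without RKO normoxia replicate 1). Normoxic RKO and A549 did not differ detectably (log2 difference -0.06, 95% confidence interval -0.50 to 0.38), and normoxic H460 was above both (RKO minus H460 -0.92, A549 minus H460 -0.86).

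*PYGB* (chr20:25228706-25278648, plus strand) encodes the brain form of the phosphorylase, and *ABHD12* overlaps it on the opposite strand, whose reads the stranded counting kept apart. In RKO it was at 92.5 and 88.6 CPM in normoxia and at 68.5 and 61.6 CPM in hypoxia. In A549 it was at 363 and 323 CPM in normoxia and at 318 and 294 CPM in hypoxia. In H460 it was at 834 and 826 CPM in normoxia and at 711 and 621 CPM in hypoxia. Hypoxic libraries were the lower ones in each line, without overlap, yet no line had a change of 1.5-fold. The log2 fold change came to -0.54 ± 0.15 in RKO (adjusted p = 0.0151), to -0.17 ± 0.17 in A549 (adjusted p = 0.664) and to -0.33 ± 0.10 in H460 (adjusted p = 0.00968). With library size scaling the H460 value was -0.68 (adjusted p = 2.24e-05), which passed both thresholds. Line differences were larger than these: normoxic *PYGB* was lower in RKO than in A549 by 1.90 and than in H460 by 3.20, and lower in A549 than in H460 by 1.30 on the log2 scale, each with an adjusted p of 1.49e-06 or less.

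Set side by side per gene length, the phosphorylase forms changed places in the lung lines. The ratio of *PYGL* to *PYGB* RPKM in H460 was 0.492 and 0.473 in normoxia and 3.78 and 4.32 in hypoxia. In A549 it was 0.610 and 0.698 in normoxia and 1.20 and 2.30 in hypoxia. In RKO it was 2.43 and 2.24 in normoxia and 3.55 and 3.76 in hypoxia, so *PYGL* was the larger part in both conditions. Every hypoxic library had a higher ratio than every normoxic library of its line, and being a ratio within a library it does not depend on scaling. The log2 ratio rose by a mean of 1.69 over the lines. An exact permutation test of the oxygen labels within lines gave a two-sided p of 0.00926, the smallest that its 216 arrangements can give. The ratio was chosen with its values known, so this p followed from the choice and is no support for a change. Within a single line the smallest p is 0.333, which each line gave, so no line could pass on its own. Summed phosphorylase RPKM was 75.5 to 80.3 in the 4 RKO libraries, and in H460 it was 312 and 311 in normoxia and 651 and 669 in hypoxia. Unlike the ratio, these sums depend on scaling, since RPKM carries no correction for library composition. The muscle form *PYGM* held at most 0.202% of the sum.

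**Figure D3:**
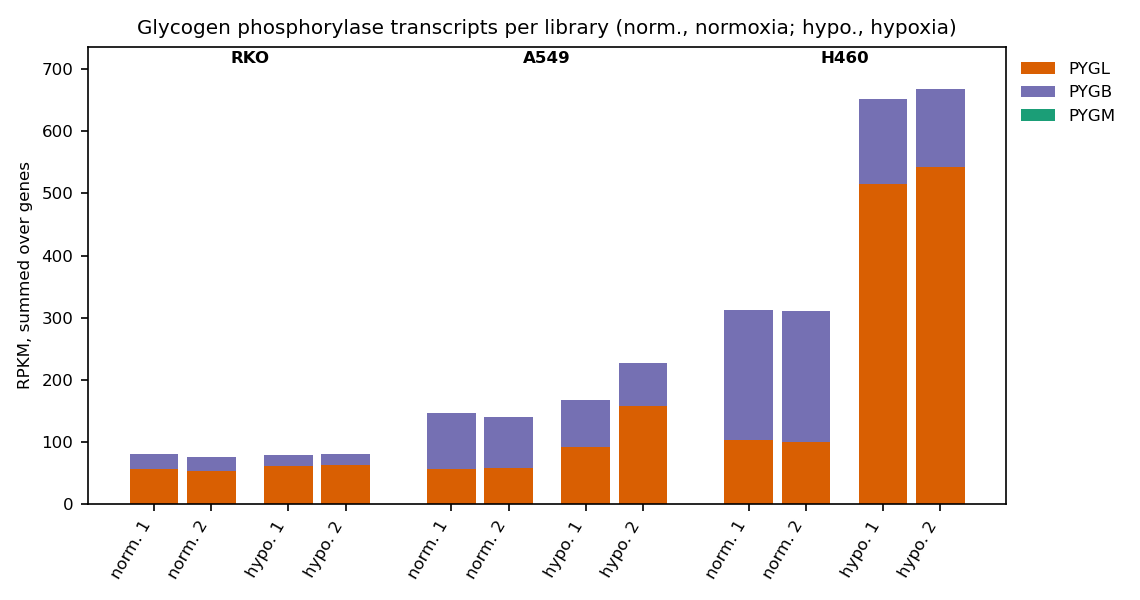
RPKM of the glycogen phosphorylase genes in each library, stacked as *PYGL*, *PYGB* and *PYGM*, with bars from 0. In H460 *PYGL* goes from 103 and 99.9 RPKM in normoxia to 515 and 543 RPKM in hypoxia, while *PYGB* goes from 209 and 211 to 136 and 126 RPKM. RPKM carries no correction for library composition, and with TMM scaling the log2 fold change of *PYGB* in H460 was -0.33 and not called.

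*PPP1R3B* (chr8:8993764-9009152, minus strand) encodes the targeting subunit of protein phosphatase 1 that was first known from liver. RKO had 99.2 and 64.7 CPM in normoxia and 336 and 267 CPM in hypoxia. A549 had 12.1 and 26.6 CPM in normoxia and 23.7 and 50.8 CPM in hypoxia. H460 had 77.7 and 74.0 CPM in normoxia and 322 and 350 CPM in hypoxia. The conditions overlapped in A549, where replicate 2 was the higher library in both conditions, and were far apart in the other lines. *PPP1R3B* rose 3.52-fold in RKO (log2 fold change 1.81 ± 0.21, adjusted p = 0.000223) and 4.40-fold in H460 (2.14 ± 0.09, adjusted p = 4.89e-09). In A549 the estimate was 0.94 ± 0.41 (adjusted p = 0.294), or 0.95 with the replicate block (adjusted p = 0.000164). It also passed without A549 normoxia replicate 2 (1.61) and without hypoxia replicate 1 (1.39). The effects in RKO and H460 did not differ detectably (RKO minus H460 -0.28, 95% confidence interval -1.31 to 0.75), a difference whose sign turned with library size scaling (0.11) and without RKO normoxia replicate 1 (0.07). Its SE was 0.48, beside 0.21 for the effect within RKO and 0.09 within H460. The joint fit gives each gene 1 spread over all lines, including the scattered A549 replicates. The A549 effect was smaller than that in H460 by 1.20 on the log2 scale (adjusted p = 0.0826), but with DESeq2 the adjusted p was 0.181. It was 0.422 without A549 normoxia replicate 2, 0.258 without A549 hypoxia replicate 1, and 0.125 to 0.170 without any of the 4 H460 libraries. The difference of RKO minus A549 was 0.92 (adjusted p = 0.260), or 0.94 with the block (adjusted p = 0.00359) and 0.93 with no filter (adjusted p = 0.00205). It passed without A549 normoxia replicate 1 (1.38) and without A549 hypoxia replicate 2 (1.59). In normoxia A549 had less *PPP1R3B* than RKO (RKO minus A549 2.10) and H460 (A549 minus H460 -2.00), and RKO minus H460 was 0.11 with a 95% confidence interval of -0.62 to 0.84.

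*PPP1R3C* (chr10:93388197-93392858, minus strand) encodes the targeting subunit also called PTG, which binds glycogen, the phosphatase and its substrates. In RKO it was almost absent, with 20 and 26 reads in normoxia and 15 and 11 reads in hypoxia. In A549 it was at 38.7 and 47.6 CPM in normoxia and at 52.3 and 105 CPM in hypoxia. In H460 it was at 247 and 242 CPM in normoxia and at 920 and 877 CPM in hypoxia. The lines were further apart in this gene than in any other of the 9: normoxic RKO was below A549 by 6.16 and below H460 by 8.68, and A549 was below H460 by 2.52 on the log2 scale (largest adjusted p = 8.59e-07). *PPP1R3C* rose 3.66-fold in H460 (log2 fold change 1.87 ± 0.09, adjusted p = 1.09e-08). In A549 the estimate was 0.86 ± 0.30 (adjusted p = 0.214). It passed with the replicate block (0.78, adjusted p = 0.000587), with DESeq2 (adjusted p = 0.0797), in the joint fit (0.88, adjusted p = 0.0459) and without hypoxia replicate 1 (1.28). In RKO the estimate was -0.89 with a 95% confidence interval of -1.91 to 0.13 (adjusted p = 0.150), and few reads stand behind it. *PPP1R3C* passed the low-count filter in RKO only through the normoxic libraries, the higher ones, so this estimate is no support for a fall. The effect in RKO was smaller than in H460 by 2.71 (adjusted p = 0.00254) and the effect in A549 was smaller than in H460 by 1.01 (adjusted p = 0.0387, or 0.104 without A549 normoxia replicate 2). RKO and A549 differed by -1.71 (adjusted p = 0.0712), which missed the threshold without any of the 4 RKO libraries (-1.89 to -1.55) or without A549 normoxia replicate 1 (-1.57).

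RKO and the lung lines differed in the leading targeting subunit, although *PPP1R3B* was at similar levels in RKO and H460. Of the RPKM summed over *PPP1R3A* to *PPP1R3G*, *PPP1R3B* held 80.0% and 70.3% in normoxic and 87.6% and 85.4% in hypoxic RKO. *PPP1R3C* held 57.5% to 64.0% in the A549 libraries and 75.2% to 77.3% in the H460 libraries. The leading subunit in a line was the same in normoxia and hypoxia, and in H460 both rose by similar fold changes (4.40 and 3.66). *PPP1R3E*, another subunit of this family, was the next in A549 (15.6% to 19.5%).

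**Figure D4:**
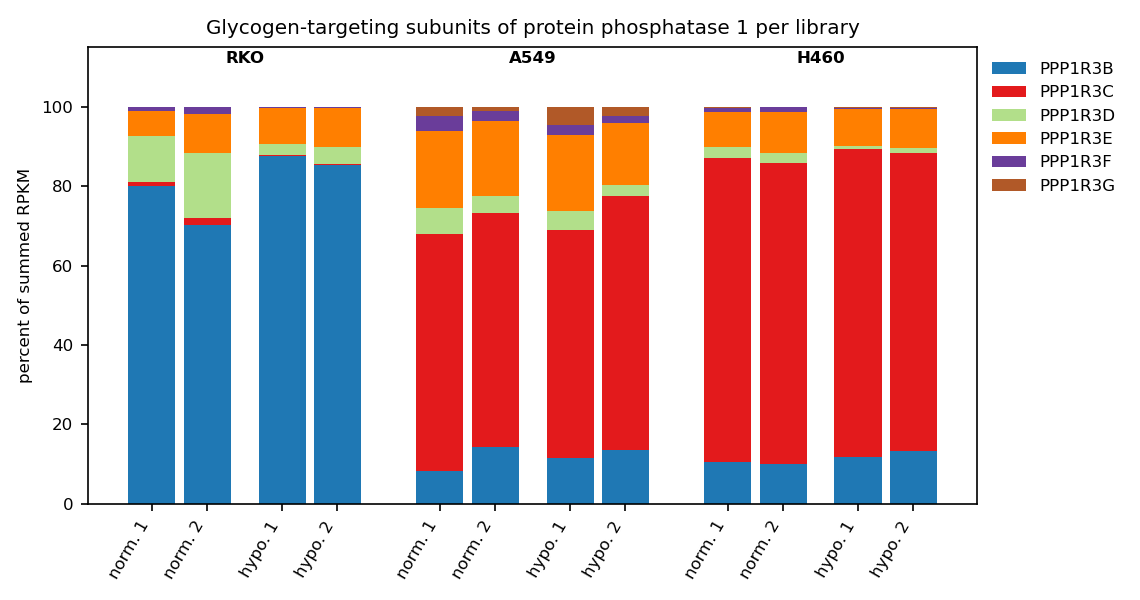
Share of each glycogen-targeting subunit gene in the RPKM summed over the family, in percent, per library (norm., normoxia; hypo., hypoxia). *PPP1R3B* makes up 70.3% to 87.6% of the bars in RKO, and *PPP1R3C* 57.5% to 77.3% in A549 and H460.

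The share of *PGM1* beside its relative *PGM2* also differed by line. It is a share of transcripts and does not measure phosphoglucomutase activity. *PGM1* held 33.5% and 32.3% of the RPKM summed with *PGM2* in normoxic RKO, and 47.3% and 41.6% in hypoxic RKO. In A549 it held 75.9% and 72.6% in normoxia and 80.7% and 84.1% in hypoxia. In H460 it held 45.7% and 42.5% in normoxia and 59.4% and 61.8% in hypoxia, so that *PGM1* became the larger part of this sum there. *PGM2* changed by -0.22, 0.04 and 0.41 on the log2 scale in RKO, A549 and H460 and was called in none.

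A list of 24 other glycogen genes covered phosphorylase kinase, the remaining phosphatase subunits, glycogen synthase kinase, lysosomal breakdown and the proteins of Lafora disease. This list was also chosen with earlier results of these data known. In RKO 4 of 18 tested genes rose and 1 fell, in A549 1 of 22 rose and 0 fell, and in H460 9 of 22 rose and 2 fell. Among all tested genes the share that rose was 18.8%, 2.22% and 24.6% in the same order of lines, and the share that fell was 15.1%, 0.456% and 27.3%. The counts for RKO and A549 lay near these shares and are no result about the list. The H460 counts include *PPP1R3G*, *PHKG1* and *NHLRC1*, which passed the low-count filter only with the libraries of the condition where they were higher. The median log2 fold change of the list was -0.09, 0.07 and 0.45 in the 3 lines. *GYS2* and *PPP1R3A* were not tested in any line, and *GYG2*, *PYGM*, *PPP1R3G* and *NHLRC1* were not tested in RKO, because too few reads were found.

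*GAA*, the lysosomal glucosidase, rose in RKO (log2 fold change 0.90) and H460 (0.74) and was not called in A549 (0.19, adjusted p = 0.666). *STBD1*, a glycogen-binding protein linked to lysosomal delivery, rose in H460 from 0.60 and 0.55 to 6.79 and 7.37 CPM (3.60) and in RKO near the threshold (0.74, adjusted p = 0.0913), with 0.89 in A549 (adjusted p = 0.307).

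Among regulators, *PPP1R3E* rose from 5.88 and 6.90 to 26.6 and 23.5 CPM in RKO (log2 fold change 1.91) and from 49.1 and 57.2 to 194 and 198 CPM in H460 (1.87). Its estimate in A549 was 0.62 (adjusted p = 0.243), below both other lines (RKO minus A549 1.33, A549 minus H460 -1.25, adjusted p = 0.0101 and 0.00339). *PPP1R3G* rose in A549 (1.71) and H460 (2.42) from under 1.1 CPM. Of phosphorylase kinase, which switches phosphorylase on, *PHKA1* (0.62) and *PHKG1* (2.34, from under 0.4 CPM) rose in H460 and no subunit was called in the other lines. *PPP1CB*, a catalytic subunit of the phosphatase, rose in H460 (0.87), as did *GSK3B* (0.59), a kinase that inhibits glycogen synthase. *EPM2A*, laforin, which removes phosphate from glycogen, fell in RKO (-1.04) and H460 (-0.84), and *NHLRC1*, malin, its partner, fell in H460 (-2.39) from 0.49 and 1.08 CPM. In H460 *PPP1R3G* and *PHKG1* passed the low-count filter only with the hypoxic libraries, and *NHLRC1* only with the normoxic ones. The filter thus favored the direction of these calls, which are no support for a change. *PGM2L1*, which makes glucose 1,6-bisphosphate, rose in RKO (0.59) and H460 (2.20), with 1.19 in A549 (adjusted p = 0.115).

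**Figure D5:**
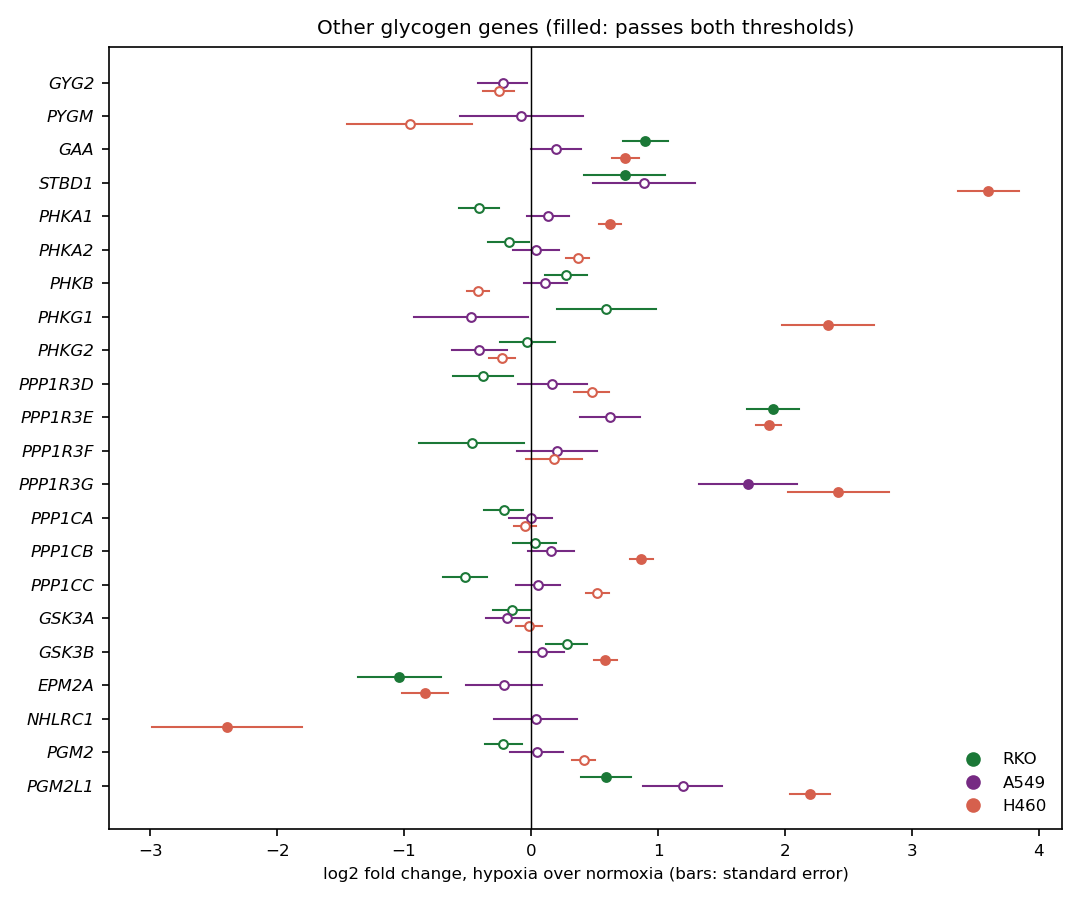
The log2 fold change of hypoxia over normoxia for the 22 other glycogen genes tested in at least 1 line, with its standard error, filled where both thresholds were passed. *STBD1*, *PHKG1*, *PPP1R3G* and *PGM2L1* lie above 2 in H460, and *NHLRC1* lies below -2. *PHKG1*, *PPP1R3G* and *NHLRC1* passed the low-count filter in H460 only with the libraries of their higher condition.

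After centring each gene on its line, the 9 genes were set against each other over the 12 libraries, as a description only, since the libraries share their line, depth and oxygen condition. *GBE1* and *PGM1* ran most alike (Pearson r = 0.98), and *PYGB* ran opposite to *PPP1R3B* (r = -0.90). *PYGB* and *GYG1*, the genes without a call for a rise in any line, had an r of 0.10 with each other. Among 11138 genes with a mean of 100 counts or more, the closest to *GBE1* were *C4orf3* and *FAM162A* (r = 0.996 and 0.995), and to *PYGL* *EFNA3* (0.996) and *PLAUR* (0.993). *GYS1* was nearest to *SLCO4A1* and *SMTN*, *PGM1* to *PDK3* and *PLIN2*, and *UGP2* to *DYNLT3* and *CITED2* (r from 0.98 to 0.99). *PPP1R3B* was nearest to *ING4* and *FAM214B* (both r = 0.99), *PPP1R3C* to *F11R* (0.97) and *FN1* (0.96), *PYGB* to *TTLL12* and *NUBP2* (both 0.98), and *GYG1* to *ALDH4A1* (0.96) and *ACYP1* (0.95).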

How the data were processed

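Strand-specific poly(A)+ libraries were read from a single end. Per the labels and the study's methods, the authors trimmed reads, aligned them to GRCh37 with TopHat2 2.0.13, removed alignments of low mapping quality and counted exon reads by strand with HTSeq 0.6.1, and they deposited these counts per gene. Genes with close copies may have lost reads in the mapping quality step. The authors also deposited RPKM, which equals the counts divided by gene length and library total, so that it carries no correction for library composition. Starts in the file count from 0 and are given here from 1.

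Each line's 4 libraries were fitted on the deposited counts with the quasi-likelihood F test of edgeR 4.0.16 after TMM scaling, in R 4.3.3, for genes over 0.5 CPM in at least 2 libraries. A call needed a Benjamini-Hochberg adjusted p under 0.1, over all genes tested, and a fold change over 1.5. A joint fit of 12 libraries gave differences between lines, where those of the hypoxia effect needed the adjusted p only. This fit used 1 estimate of spread per gene for all groups, although the lines differed in spread. CPM in the text are scaled by TMM over all 12 libraries. The study itself used DESeq2, which was run here as an alternative (1.42.0), as was limma 3.58.1 on log2(RPKM + 0.1) and log2(RPKM + 1). On data simulated from the RKO, A549 and H460 libraries, 200 genes were changed among 12674, 14121 and 13865, equally up and down. Of changes of 1 on the log2 scale 82%, 66% and 96% were called, and of changes of 2 98%, 98% and 100%. There were 11, 42 and 3 calls among the unchanged genes. In the data 4345, 381 and 7304 genes were called, so the simulated setting differs and these rates need not hold there.

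The spread of replicates exceeded counting error in all 6 groups (chi-square per degree of freedom 10.1 to 79.1). The biological coefficient of variation came to 15.0% for RKO, 18.9% for A549 and 7.91% for H460. Same-numbered libraries of the 2 conditions deviated together (correlation of deviations 0.34, 0.34 and 0.11). That is a hint from the data, since the labels do not say what a number shares, and the block is therefore an alternative. Library size scaling in place of TMM shifted the median gene by 0.08, -0.09 and -0.35 in RKO, A549 and H460, so changes are relative to the TMM reference. It moved the share of calls that were higher from 55.6% to 64.6% in RKO and from 47.5% to 26.5% in H460.

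The text names all 9 genes, every gene of the other list called in a line, those not tested, 5 genes that check the treatment, cell type markers, and for each of the 9 the 2 genes with the highest correlation. *GYG2*, *PYGM* and *PGM2* were added for the family shares. An item of the other list is not reported here. The genes and lists were chosen with earlier results of these data known.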

Additional observations from a re-analysis of the deposited data

Results flagged for a closer look

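The hypoxia effect differed between RKO and H460 for 7 of the 9 glycogen genes, by the interaction of line and oxygen in the joint edgeR fit. In that test 37.6% of 15595 genes passed. The RKO effect was the smaller for *GYS1* (difference of log2 fold changes -1.48 ± 0.25 SE), *GBE1* (-0.79 ± 0.19), *PYGL* (-2.59 ± 0.29), *PPP1R3C* (-2.71 ± 0.55), *PGM1* (-0.84 ± 0.22) and *UGP2* (-1.52 ± 0.21). For *GYG1* it was the larger (1.31 ± 0.23). The adjusted p ranged from 5.64e-05 (*PYGL*) to 0.0105 (*PGM1*). All 7 also passed the test over the 3 lines, in which 48.8% of all genes passed. RKO and H460 were grown in different media. *PPP1R3C* had only 20 and 26 reads in normoxic and 15 and 11 reads in hypoxic RKO. With library size scaling the edgeR difference of *PGM1* was -0.45 and lost its call (adjusted p = 0.101). That scaling shifted the median gene by 0.08 in RKO and -0.35 in H460, so the sizes of these differences depend on the scaling.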

How the results depend on the processing

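Precision is limited by 2 libraries per group, and most in A549, where the median standard error over all genes was 0.223. Of 159 counts recomputed under an alternative, 143 stayed within 1.5 times the main count, and of 1401 gene values 1288 kept their direction and side of the threshold, 31 gained a call, 70 lost it and 12 turned their sign, none of them called.

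The A549 count of 3 higher genes was 5 with DESeq2, 5 in the joint fit and 6 with the replicate block. It was 1 each with library size only, with both limma fits and with an adjusted p under 0.05. The share of all genes called was not set beside the count for any alternative. The counts under alternatives therefore show how calls of the listed genes moved, not whether these genes stood out from all genes. Leaving out single libraries gave 1 to 6 in A549 and 2 to 4 higher genes in RKO, against 2 with all libraries. The H460 count of 1 lower gene was 2 with library size only and with both limma fits, and 0 with a fold change over 2. That threshold also left 4 of 7 genes that differed between normoxic A549 and H460. Besides the A549 count, with *GYS1*, *PPP1R3B* and *PPP1R3C* added, and the *PPP1R3B* difference of RKO minus A549, the block changed no other call. Lone libraries in a leave-one-out fit are assumed to vary like the others.

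Signs turned in these differences, the cause of which was not tested. For *GBE1* in RKO minus A549 the difference of effects was 0.020 with library size only, 0.017 with limma at a pseudocount of 0.1 and 0.000115 at 1. For *PPP1R3B* in RKO minus H460 it was 0.11, 0.14 and 0.14 under the same settings and, without single libraries, -0.54 to 0.074 (the highest without RKO normoxia replicate 1), and for *PYGB* it was 0.23, 0.23 and 0.24. The normoxic difference of *PYGL* in RKO minus A549 was -0.16 to 0.014 without single libraries (the highest without RKO normoxia replicate 2), and that of *PPP1R3B* in RKO minus H460 was -0.24 to 0.37 (the lowest without RKO normoxia replicate 1).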
